A study of Mus musculus with 4 samples.

Results

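The genes described here are 36 genes of glycolysis, lactate handling, the control of pyruvate dehydrogenase and the pentose phosphate pathway, out of 22911 genes with a named probe on the array. They were taken by name from a list of these pathways, and each was read by the probe with the highest mean signal among those whose transcript belongs to the gene. RNA came from EpCAM+ epithelial tumour cells of the mouse intestine, collected 14 days after tamoxifen, and was measured on 4 one-colour arrays, 1 for each of 4 sorted populations. All 4 populations came from mice of the genotype Lgr5CreERT2/+; Ctnnb1lox(ex3)/ox(ex3), in which tamoxifen-activated Cre, made where the Lgr5 gene is on, removes an exon of Ctnnb1 and leaves a stable beta-catenin. All groups analysed here share these alleles.

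The sort used Lgr5, a receptor of intestinal stem cells, and a tuft cell marker, the IL17RB receptor subunit. The populations were Lgr5+ tuft marker+ (called double-positive below), Lgr5+ tuft marker- (Lgr5 single-positive), Lgr5- tuft marker+ (tuft single-positive) and Lgr5- tuft marker- (double-negative). The labels give no gate for cells in which Cre had acted, so whether the exon was removed in each population was not tested, and the number of animals behind a sort was not stated in the sources used here. With 1 array per population no replicate check was possible, and no test or p-value is given. Each difference below describes these 4 arrays.

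Glycolysis splits glucose into pyruvate in the cytosol and yields ATP without oxygen. Pyruvate is either reduced to lactate, which leaves the cell through monocarboxylate transporters, or enters the mitochondrion, where pyruvate dehydrogenase makes acetyl-CoA from it. The pentose phosphate pathway branches off at glucose 6-phosphate and supplies NADPH and ribose for nucleotides. In many tumours and in the dividing cells of the intestinal crypt much of the pyruvate made is turned to lactate, and several of these genes are known targets of the hypoxia-inducible factor HIF-1 and of Myc.

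A level is a log2 signal from which the 75th percentile of its array was subtracted, so that 0 is that percentile. A level says nothing about one gene against another, since probes differ in how well they bind. Differences of at least 2-fold, or 1 on the log2 scale, are counted, and the error beside a difference is the scanner software's own error of the spots, with a median of 0.20 over the members in every pair. It leaves out the spread between animals, sorts and labelling reactions. On the double-positive, Lgr5 single-positive, tuft single-positive and double-negative arrays 60.2%, 68.9%, 69.0% and 64.3% of the spots were well above background. No spot was saturated. Il17rb was 6.75-fold higher with the tuft marker within Lgr5+ and at least 14.2-fold higher within Lgr5-. Lgr5 itself was at least 7.34-fold higher in the Lgr5+ cells among tuft marker+ cells and 5.23-fold higher in those among tuft marker- cells. Epcam stood between 4.52 and 5.56 on the 4 arrays, so the epithelial marker of the gate was present in every population.

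Of the 36 members, 35 were above background on at least 1 array and 34 on all 4. Pfkfb1, one of the enzymes that set fructose 2,6-bisphosphate, was not well above background on any array and is given no further value. Ldhb was not well above background in double-negative cells alone. Probes for Gapdh, Pgk1, Ldha, Aldoa, Eno1, Tpi1 and Pgam1 may also bind transcripts of close copies of these genes, so their values are uncertain to that extent.

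Most of the members were higher in double-positive and in double-negative cells than in either single-positive population. The tuft marker difference (tuft marker+ minus tuft marker- cells) had a median of 0.47 over the members within Lgr5+, where the median of all genes was 0.00, and of -0.74 within Lgr5-, where it was 0.08 over all genes. The Lgr5 difference (Lgr5+ minus Lgr5- cells) had a median of 0.40 within tuft marker+, against -0.04 for all genes, and of -0.58 within tuft marker-, against 0.01 for all genes. The members' median minus that of all genes was 0.46 for the tuft marker within Lgr5+, against 0.20 after normexp background correction, 0.27 with the dimmest probe and 0.31 with the mean of all probes. In these bulk samples fewer cells of a type and less RNA per cell cannot be told apart.

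In 21 of 35 members both single-positive populations lay below both of the others. The same order was found in 21.1% of 16263 genes. The 21 were Hk2, Gpi1, Pfkp, Aldoa, Tpi1, Gapdh, Pgk1, Pgam1, Bpgm, Eno1, Eno3, Pkm, Pklr, Ldha, Slc16a3, Pdk3, Pdk4, Pdha1, Pgd, Tkt and Taldo1. In 17 members the tuft marker difference was above 0 within Lgr5+ and below 0 within Lgr5-, each by more than its spot error, as in 14.4% of all genes. Pdk1 alone had the opposite order beyond its errors (13.4% of all genes), and only by its brightest probe. With the dimmest probe above background in place of the brightest, both single-positive populations were below the others in 17 members.

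Genes with high signals showed this order more often than others. At a mean level over 2, a threshold chosen after the values were seen, 32.2% of 2529 genes had it, and so did 16 of 17 members. Pfkfb3 was the exception, and only by its brightest probe. The tuft marker difference within Lgr5+ minus that within Lgr5- was at least 1 in 20 members (19% of all genes) and -1 or lower in 1, Ldhb (21.6% of all genes). It had a median of 1.16 over the members and 0.02 over all genes, and at a mean level over 2 it was 1.34 for members and 0.37 for all genes. The arrays on which the members were higher also had smaller shares of spots above background, 60.2% in double-positive and 64.3% in double-negative cells, against 68.9% and 69.0% in both single-positive populations. The part of signal strength and of detection in the result was not tested.

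Among the 34 members above background on all 4 arrays, 8 had their highest level in double-positive cells (23.8% of all such genes) and none in Lgr5 single-positive cells (18.6%). Tuft single-positive cells held the highest level of 4 members (29.8% of all such genes) and double-negative cells that of 22 (27.8%). The lowest level was in Lgr5 single-positive cells for 15 members and in tuft single-positive cells for 13, where the shares of all genes were 20.9% and 34.2%. Double-positive and double-negative cells each held the lowest level of 3 members, against 21.9% and 23.1% of all genes. Members with few signs of this order stood out as rows of another colour pattern in the heat map, mainly Hk1, Pfkfb3, Ldhb and Pdk2.

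**Figure D1:**
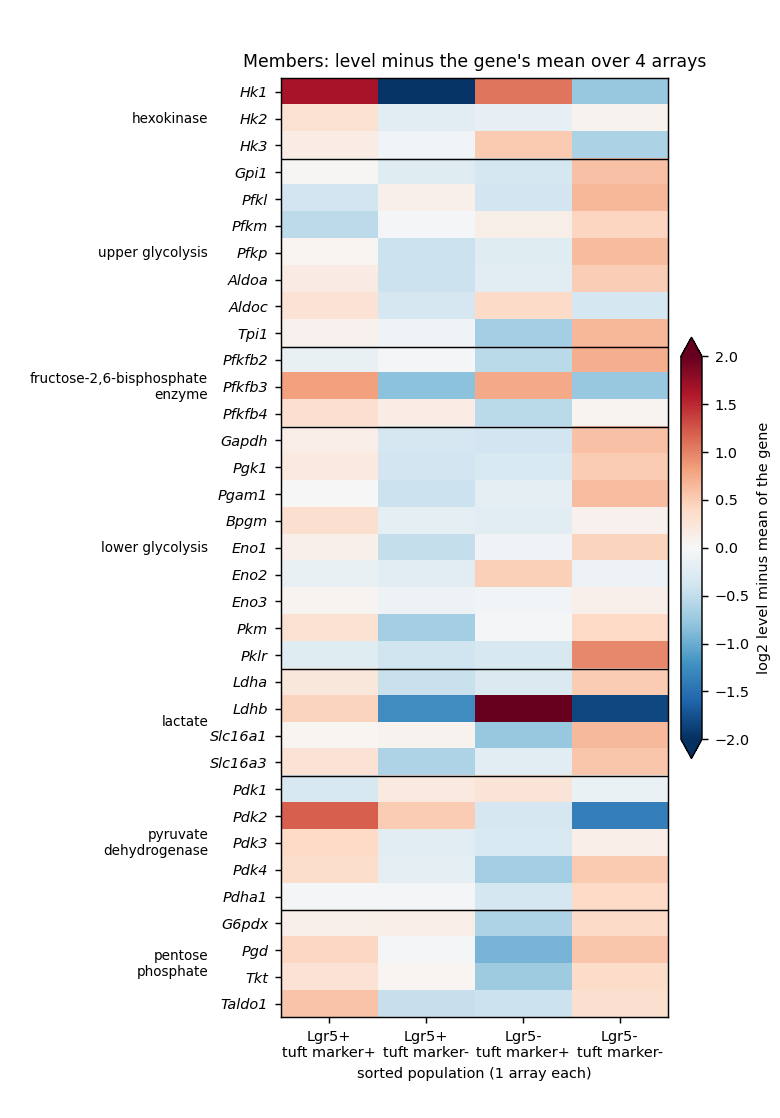
Log2 level of 35 members minus the gene's own mean over the 4 arrays (colour, saturated at 2 in both directions), with the populations from left to right as double-positive, Lgr5 single-positive, tuft single-positive and double-negative, and members grouped by role. Most rows are warm in the outer columns and cool in the inner ones, while Hk1, Pfkfb3 and Ldhb are warm in both tuft marker+ columns.

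The plot of the tuft marker difference in both Lgr5 classes puts most members right of 0 and below 0. Of the 35, 22 had a positive difference within Lgr5+ and a negative one within Lgr5-, an order seen in 25.8% of all genes. Another 7 were positive in both classes (23.7% of all genes), 5 were negative in both (22.4%) and 1, Pdk1, was negative within Lgr5+ and positive within Lgr5- (28.1%).

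**Figure D2:**
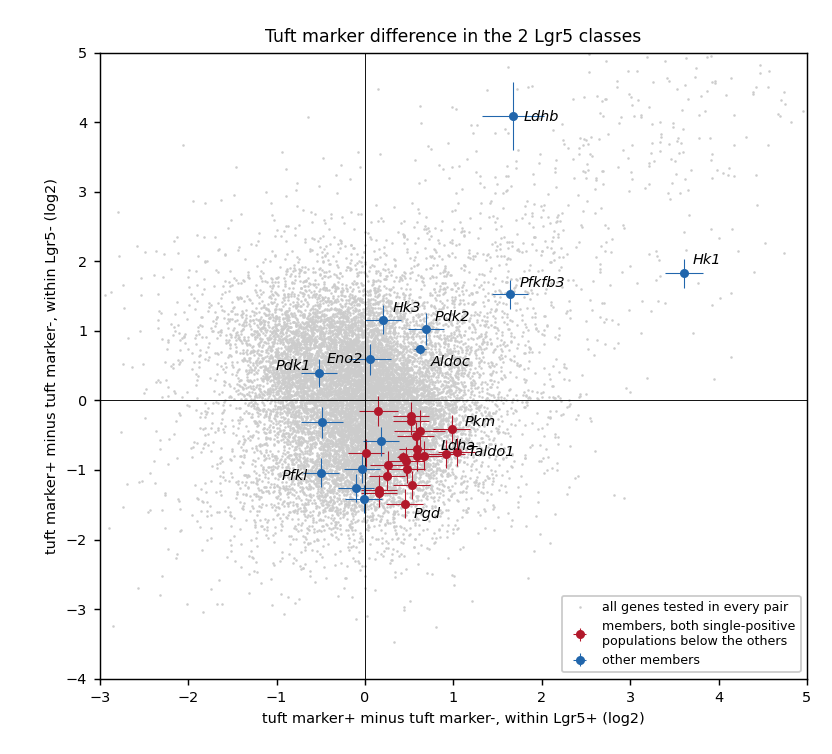
Tuft marker+ minus tuft marker- level on the log2 scale within Lgr5+ (horizontal axis) and within Lgr5- (vertical axis), with small grey points for all genes tested in every pair (those beyond the axes are not drawn), red points for members with both single-positive populations below the others and blue points for other members. Bars are spot errors, and the value of Ldhb within Lgr5- is a lower limit. Red points fill the lower right quadrant and Hk1, Pfkfb3 and Ldhb lie at the upper right.

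Promoter sequences are shown for 4 members, because members that move together invite a look at shared letters. They are 250 bases before the RefSeq start in GRCm38.p6, from the start that lies farthest upstream where a gene has several, and capitals mark the core of the hypoxia response element, ACGTG or GCGTG, on either strand. By their brightest probes Ldha, Pgk1 and Slc16a3 had both single-positive populations below the others, and Pfkfb3 did not. The windows are chr7:46845554-46845803 on the plus strand for Ldha, chrX:106186850-106187099 on the plus strand for Pgk1, chr11:120948817-120949066 on the plus strand for Slc16a3 and chr2:11553930-11554179 on the minus strand for Pfkfb3.
Ldha: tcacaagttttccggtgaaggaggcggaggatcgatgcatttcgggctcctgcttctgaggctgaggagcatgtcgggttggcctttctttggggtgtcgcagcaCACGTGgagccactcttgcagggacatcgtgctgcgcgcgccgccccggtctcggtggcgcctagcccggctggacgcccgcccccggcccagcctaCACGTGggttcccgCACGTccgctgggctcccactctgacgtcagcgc
Pgk1: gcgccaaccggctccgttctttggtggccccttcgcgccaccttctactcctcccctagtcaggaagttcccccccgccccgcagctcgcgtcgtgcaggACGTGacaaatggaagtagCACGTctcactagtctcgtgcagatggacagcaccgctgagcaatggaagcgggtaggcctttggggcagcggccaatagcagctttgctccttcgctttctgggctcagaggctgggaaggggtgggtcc
Slc16a3: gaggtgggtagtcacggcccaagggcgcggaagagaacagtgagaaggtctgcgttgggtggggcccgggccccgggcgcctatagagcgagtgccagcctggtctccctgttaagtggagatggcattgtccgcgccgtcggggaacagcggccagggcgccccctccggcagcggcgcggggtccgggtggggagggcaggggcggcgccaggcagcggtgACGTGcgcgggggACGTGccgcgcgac
Pfkfb3: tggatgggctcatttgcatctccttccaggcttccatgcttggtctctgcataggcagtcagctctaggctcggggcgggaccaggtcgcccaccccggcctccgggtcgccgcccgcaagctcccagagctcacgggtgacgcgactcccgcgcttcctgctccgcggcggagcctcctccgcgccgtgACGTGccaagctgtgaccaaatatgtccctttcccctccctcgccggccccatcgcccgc

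Ldha held the core 5 times, of which 4 were the paired strands of 2 E-boxes, CACGTG, a motif that reads the same on both strands and so contains the core on each. Pgk1 and Slc16a3 held it 2 times each and Pfkfb3 once. The 4 promoters shown all held the form ACGTG, which was in 11 of the 36 members (30.6%) and in 16.5% of all promoters. All 36 members were found in the promoter table, and 27 of them (75%) held at least 1 core, against 38.6% of 27025 promoters of the same length. An E-box was found in 4 members (11.1%), against 6.04% of all promoters. The core was in 15 of the 21 members with both single-positive populations below the others (71.4%) and in 12 of the other 15 (80.0%). An E-box was in 1 of these 21 (4.76%) and in 3 of the other 15 (20.0%). These matches are letters in a window and not measured sites. The set of all promoters was not matched to the members in base composition, and the part of base composition in these shares was not tested.

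Glycolysis starts with the hexokinases, which phosphorylate glucose. Hk1, the hexokinase of most tissues, had levels of 2.50 in double-positive, -1.11 in Lgr5 single-positive, 1.92 in tuft single-positive and 0.09 in double-negative cells. Both tuft marker+ populations were above both tuft marker- ones. It was 12.2-fold higher with the tuft marker within Lgr5+ (log2 difference 3.61, error 0.21) and 3.55-fold higher within Lgr5- (1.83, error 0.21). A second, dimmer probe for a different Hk1 transcript gave -0.34 and 0.25, so within Lgr5+ both the direction and the size rest on the brighter probe, and within Lgr5- the size does. Within tuft marker- cells Hk1 was 2.30-fold lower with Lgr5 (-1.20, error 0.21), and there the second probe gave 0.058.

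Hk2, the inducible hexokinase of many tumours, had levels of 2.65, 2.14, 2.19 and 2.41 in double-positive, Lgr5 single-positive, tuft single-positive and double-negative cells. All its differences were under 2-fold. Hk3, a hexokinase known from myeloid cells, had 2.11, 1.90, 2.49 and 1.32 in the same order, with its highest level in tuft single-positive cells. Its tuft marker difference was 0.21 within Lgr5+, about its error of 0.20, and within Lgr5- it was 2.24-fold higher with the marker (1.16, error 0.20). Its second probe gave 0.86 and 2.20 for these differences.

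Macrophage markers, like Hk3, were highest in tuft single-positive cells by their median and summed level. Of 12 such markers, 8 were at least 2-fold higher with the tuft marker within Lgr5+ and 10 within Lgr5-, with medians of 2.94 and 3.84. Within Lgr5+ 2 markers were below 0, Csf1r at -0.05 and Lyz2 at -0.61. For Lgr5 within tuft marker- the list and Hk3 differed, with a median of -0.45 against 0.58 for Hk3. Their summed log2 level was 6.31 in double-positive, 5.33 in Lgr5 single-positive, 7.04 in tuft single-positive and 5.19 in double-negative cells. Adgre1, C1qa and C1qc were not above background in Lgr5 single-positive cells, nor was Mrc1 in double-negative cells. Stromal markers were also highest in tuft single-positive cells, with summed levels of 3.62, 0.32, 5.39 and 0.72 in the same order. All 6 tested within Lgr5+ (median 2.98) and all 9 within Lgr5- (median 4.33) were at least 2-fold higher with the tuft marker, and Lum, Pdgfra and Pdgfrb were above background in tuft single-positive cells only. The part of these cells in the tuft marker differences of Hk1, Hk3, Pfkfb3 and Ldhb was not tested.

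**Figure D3:**
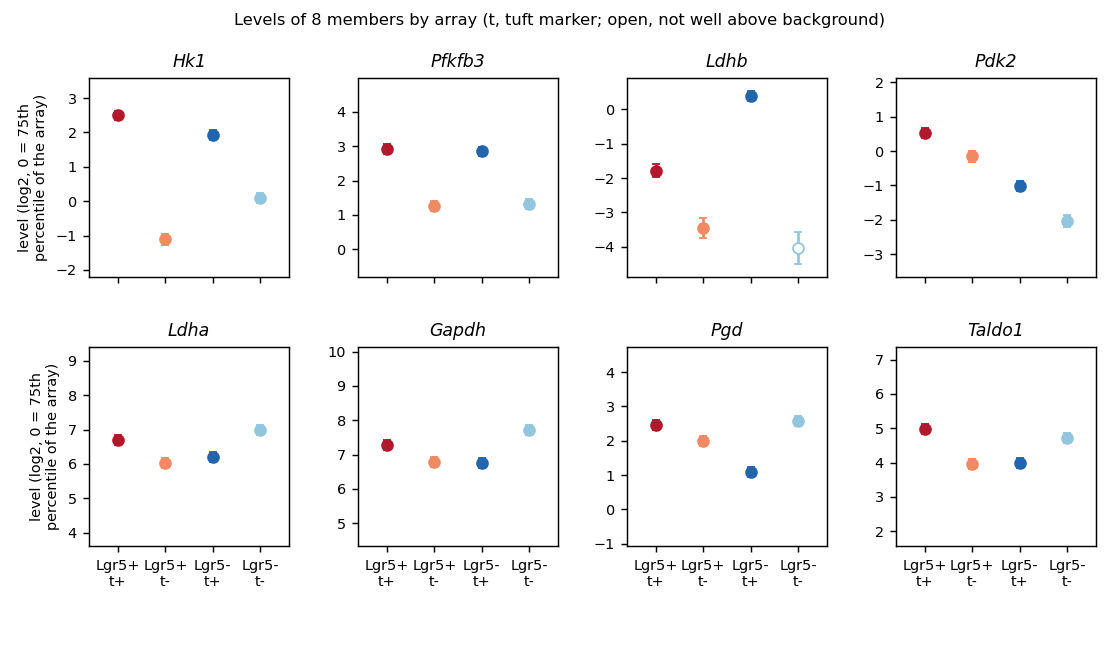
Log2 levels (0 is the 75th percentile of the array) of 8 members on the 4 arrays, 1 point per population from left to right as double-positive, Lgr5 single-positive, tuft single-positive and double-negative, with the spot error as bars and an open point where the probe was not well above background. Hk1, Pfkfb3 and Ldhb are high in both tuft marker+ populations, Pdk2 in both Lgr5+ populations, and Ldha, Gapdh, Pgd and Taldo1 in double-positive and double-negative cells.

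The next steps rearrange glucose 6-phosphate and split it into triose phosphates. Over the 7 genes of this stage the tuft marker difference had a median of 0.26 within Lgr5+ and -0.88 within Lgr5-, where 6 of 7 were below 0. Gpi1, the isomerase that makes fructose 6-phosphate, had levels of 4.05, 3.78, 3.68 and 4.61 in double-positive, Lgr5 single-positive, tuft single-positive and double-negative cells. Double-negative cells were the highest, and the tuft marker difference within Lgr5- was -0.93 (error 0.20). Within Lgr5+ it was 0.26 (error 0.20), and its other probes gave 0.21 and -0.48.

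The isoforms of phosphofructokinase, the committed step, differed among themselves. Pfkp, the platelet isoform, had levels of 2.98, 2.52, 2.69 and 3.56 in double-positive, Lgr5 single-positive, tuft single-positive and double-negative cells, and was 2.07-fold lower with Lgr5 within tuft marker- (-1.05, error 0.20). Pfkl, the liver isoform, had 1.21, 1.71, 1.23 and 2.26 in the same order, so that both tuft marker+ populations were below both tuft marker- ones. With the tuft marker it was 1.41-fold lower within Lgr5+ (-0.50, error 0.20) and 2.05-fold lower within Lgr5- (-1.04, error 0.20). Pfkm, the muscle isoform, ran between -1.78 in double-positive and -0.82 in double-negative cells, with no 2-fold difference in any pair.

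Aldoa, the main aldolase outside the liver and brain, had levels of 6.44, 5.85, 6.06 and 6.76 in double-positive, Lgr5 single-positive, tuft single-positive and double-negative cells, with no 2-fold difference. Aldoc, the brain aldolase, followed the tuft marker instead, at 1.86, 1.24, 1.96 and 1.23 in that order, with differences of 0.62 within Lgr5+ and 0.73 within Lgr5- (error 0.06 each). Its second, dimmer probe gave -0.74 and -0.52, the opposite direction. Tpi1, which interconverts the triose phosphates, had 3.80, 3.65, 3.04 and 4.37. It was 2.52-fold lower with the tuft marker within Lgr5- (-1.33, error 0.20), and its other probes gave -1.61 and -1.86 there. Within Lgr5+ the brightest probe gave 0.16 (error 0.20) and the others -0.71 and -0.94, so that its place among the 21 members rests on the brightest probe.

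Bifunctional enzymes set the level of fructose 2,6-bisphosphate, the activator of phosphofructokinase. Pfkfb3, the isoform with the strongest kinase activity, had levels of 2.91 in double-positive, 1.27 in Lgr5 single-positive, 2.85 in tuft single-positive and 1.32 in double-negative cells. Both tuft marker+ populations were above both tuft marker- ones, and the Lgr5 differences were 0.06 among tuft marker+ cells and -0.06 among tuft marker- cells, both under the error of 0.20. It was 3.12-fold higher with the tuft marker within Lgr5+ (1.64, error 0.20) and 2.88-fold higher within Lgr5- (1.53, error 0.20). The second, dimmer Pfkfb3 probe gave 0.67 within Lgr5+ and -0.65 within Lgr5-, so that the direction within Lgr5- rests on the brighter probe. For Lgr5 it gave 0.08 among tuft marker+ cells and -1.24 among tuft marker- cells. By this dimmer probe both single-positive populations lay below the others, so the different order of Pfkfb3 rests on the brighter probe.

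Pfkfb2, the heart isoform, had levels of 1.13, 1.23, 0.74 and 1.99 in double-positive, Lgr5 single-positive, tuft single-positive and double-negative cells. It was 2.39-fold lower with the tuft marker within Lgr5- (-1.26, error 0.20). Its dimmer probes gave -0.50 and 0.17 there, so the 2-fold size rests on the brightest probe. Pfkfb4, first known from testis, had 0.68, 0.50, -0.18 and 0.40 in the same order. Its Lgr5 difference within tuft marker+ was 0.87 (error 0.21), under 2-fold. A second, dimmer Pfkfb4 probe gave 2.25 there and -2.27 for the tuft marker within Lgr5-. That probe was not well above background in tuft single-positive cells.

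In lower glycolysis all 9 genes were above 0 for the tuft marker difference within Lgr5+ (median 0.48) and 8 of 9 were below 0 within Lgr5- (median -0.51). All 9 had a negative Lgr5 difference within tuft marker- cells (median -0.91). Gapdh, the triose phosphate dehydrogenase often used as a reference gene, had levels of 7.27, 6.79, 6.75 and 7.73 in double-positive, Lgr5 single-positive, tuft single-positive and double-negative cells. Its tuft marker difference was 0.48 within Lgr5+ and -0.98 within Lgr5- (error 0.20 each). Pgk1, which makes the first ATP, had 5.06, 4.48, 4.57 and 5.37 in the same order, and differences of 0.58 and -0.81 (error 0.20 each).

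Pgam1, a phosphoglycerate mutase, stood at 5.32 in double-positive, 4.89 in Lgr5 single-positive, 5.13 in tuft single-positive and 5.94 in double-negative cells. It was 2.06-fold lower with Lgr5 within tuft marker- (-1.05, error 0.07). Bpgm, which makes the 2,3-bisphosphoglycerate of red cells, was highest in double-positive cells at 4.21 and stood at 3.69, 3.69 and 3.98 in Lgr5 single-positive, tuft single-positive and double-negative cells. Erythroid markers had another order: for the 5 on the array the summed levels were 0.44, 0.68, 0.97 and 0.61 in double-positive, Lgr5 single-positive, tuft single-positive and double-negative cells, with 2, 4, 4 and 4 above background.

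The enolases make phosphoenolpyruvate. Eno1, the widespread form, had levels of 4.57, 3.99, 4.39 and 4.90 in double-positive, Lgr5 single-positive, tuft single-positive and double-negative cells. Its tuft marker difference within Lgr5+ was 0.57 by this probe and -0.20 by a dimmer one. Eno2, the neuronal form, had -1.45, -1.51, -0.82 and -1.41 in that order, highest in tuft single-positive cells. Eno3, the muscle form, ran between -1.02 and -0.82, and none of its differences exceeded its error of 0.22.

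Pyruvate kinase closes glycolysis. Pkm, the form of most tumours, had levels of 5.87 in double-positive, 4.89 in Lgr5 single-positive, 5.55 in tuft single-positive and 5.97 in double-negative cells. Lgr5 single-positive cells were below the other populations, at a 1.97-fold tuft marker difference within Lgr5+ (0.98, error 0.20) and a 2.11-fold lower level than in double-negative cells (-1.08, error 0.20). Pklr, the form of liver and red cells, had 2.23, 2.07, 2.15 and 3.43 in the same order, so that double-negative cells stood above the rest. It was 2.43-fold lower with the tuft marker within Lgr5- (-1.28, error 0.20) and 2.57-fold lower with Lgr5 within tuft marker- (-1.36, error 0.20).

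The subunits of lactate dehydrogenase differed in sign for the tuft marker within Lgr5- and for Lgr5 within tuft marker+. The tuft marker difference of each subunit was above 0 in Lgr5+ cells by its brightest probe. For Lgr5 within tuft marker- the value of Ldhb was a lower limit (at least 0.25, error 0.55). Ldha, the subunit that favours lactate production, had levels of 6.70 in double-positive, 6.03 in Lgr5 single-positive, 6.20 in tuft single-positive and 6.99 in double-negative cells. Its tuft marker difference was 0.67 within Lgr5+ and -0.79 within Lgr5- (error 0.20 each), and its Lgr5 difference was 0.50 among tuft marker+ cells and -0.96 among tuft marker- cells (error 0.20 each). A second, dimmer probe gave -0.55 for the tuft marker within Lgr5+ and -2.22 within Lgr5-, so the direction within Lgr5+ rests on the brighter probe. Ldhb, the subunit that favours lactate use, had -1.79 in double-positive, -3.46 in Lgr5 single-positive, 0.38 in tuft single-positive and, not well above background, -4.04 in double-negative cells. Both tuft marker+ populations were above both tuft marker- ones.

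Ldhb was 3.19-fold higher with the tuft marker within Lgr5+ (1.68, error 0.35) and at least 17.1-fold higher within Lgr5- (at least 4.09). A second Ldhb probe, for a different transcript, was not well above background on any array, so the Ldhb values rest on the brighter probe. Within tuft marker+ cells Ldhb was 4.5-fold lower with Lgr5 (-2.17, error 0.24). No other member had so large a difference within Lgr5-. Macrophage and stromal markers were likewise at their highest in tuft single-positive cells, and their part was not tested.

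The monocarboxylate transporters followed Ldha in part. Slc16a1, which encodes MCT1, had levels of 1.74, 1.76, 0.93 and 2.35 in double-positive, Lgr5 single-positive, tuft single-positive and double-negative cells. Its tuft marker difference was -0.02 within Lgr5+, and within Lgr5- it was 2.68-fold lower with the marker (-1.42, error 0.20). Slc16a3, which encodes the lactate exporter MCT4, had 1.22, 0.30, 0.70 and 1.48 in the same order. It was 2.25-fold lower with Lgr5 within tuft marker- (-1.17, error 0.21), and 1.89-fold higher with the tuft marker within Lgr5+ (0.92, error 0.21).

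Pyruvate dehydrogenase kinases switch off the complex that feeds pyruvate into the mitochondrion. Pdk2, a kinase found in most tissues, was ordered by Lgr5, with levels of 0.53 in double-positive, -0.16 in Lgr5 single-positive, -1.01 in tuft single-positive and -2.05 in double-negative cells. It was 2.91-fold higher with Lgr5 within tuft marker+ (1.54, error 0.21) and 3.70-fold higher within tuft marker- (1.89, error 0.23). Within Lgr5- it was also 2.04-fold higher with the tuft marker (1.03, error 0.23). It was the only member at least 2-fold apart in the same direction in both Lgr5 pairs.

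Pdk4, a kinase raised by fasting in other tissues, had levels of 0.58 in double-positive, 0.06 in Lgr5 single-positive, -0.47 in tuft single-positive and 0.74 in double-negative cells. It was 2.32-fold lower with the tuft marker within Lgr5- (-1.21, error 0.21) and 2.08-fold higher with Lgr5 within tuft marker+ (1.05, error 0.21). By its brightest probe Pdk1, a kinase known as a HIF-1 target, had the opposite order to most members. Its levels were 1.57, 2.09, 2.15 and 1.76 in double-positive, Lgr5 single-positive, tuft single-positive and double-negative cells. Of its 4 probes only the brightest was above 0 for the tuft marker difference within Lgr5-, at 0.39, and the others gave -0.92, -1.80 and -1.62. Within Lgr5+ the others gave 0.77, 0.17 and -0.58. For Lgr5 they gave 1.35, 0.99 and 0.81 within tuft marker+ and -0.34, -0.99 and -0.23 within tuft marker-, so the opposite order of Pdk1 rests on the brightest probe. Pdk3, another kinase of the family, ran between -2.99 and -2.28. Pdha1, the E1 alpha subunit of the complex itself, had 1.21, 1.19, 0.87 and 1.62 in that order, with no 2-fold difference.

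The pentose phosphate genes were the lowest in tuft single-positive cells, Taldo1 apart. All 4 had a negative tuft marker difference within Lgr5- (median -1.04) and a positive Lgr5 difference within tuft marker+ (median 1.0). G6pdx, the rate-limiting dehydrogenase, had levels of 1.30, 1.33, 0.59 and 1.58 in double-positive, Lgr5 single-positive, tuft single-positive and double-negative cells. Its tuft marker difference was -0.99 within Lgr5- (error 0.20), just under 2-fold. Pgd, the second enzyme to make NADPH, had 2.45, 2.0, 1.09 and 2.58. It was 2.80-fold lower with the tuft marker within Lgr5- (-1.48, error 0.20) and 2.56-fold higher with Lgr5 within tuft marker+ (1.35, error 0.20).

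Tkt, the transketolase of the non-oxidative branch, had levels of 3.6 in double-positive, 3.35 in Lgr5 single-positive, 2.60 in tuft single-positive and 3.68 in double-negative cells, 2.12-fold lower with the tuft marker within Lgr5- (-1.09, error 0.20). Taldo1, the transaldolase of the same branch, had 4.99, 3.95, 3.99 and 4.73, with both single-positive populations about equal and below the others. It was 2.05-fold higher with the tuft marker within Lgr5+ (1.03, error 0.20). Its second, dimmer probe gave -0.40 there, while within Lgr5- both probes were below 0 at -0.74 and -1.11.

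Counted by size, few members were 2-fold apart. Within Lgr5+ the tuft marker difference was at least 2-fold positive in 4 of 35 members, Hk1, Ldhb, Pfkfb3 and Taldo1, where 10.5% of all genes were, and in no member negative, where 8.23% of all genes were. Within Lgr5- it was positive in 5 (16.6% of all genes), Hk1, Hk3, Pfkfb3, Ldhb and Pdk2. It was negative in 8 (12.3% of all genes), Pfkl, Tpi1, Pfkfb2, Pklr, Slc16a1, Pdk4, Pgd and Tkt. The Lgr5 difference within tuft marker+ was positive in 5 (8.97% of all genes), Pdk2, Pdk4, Pgd, Tkt and Taldo1, and negative in Ldhb alone (11.5% of all genes). Within tuft marker- it was positive in Pdk2 alone (6.62% of all genes) and negative in 6 (5.31% of all genes), Hk1, Pfkp, Pgam1, Pkm, Pklr and Slc16a3. The positive counts for the tuft marker are near these shares of all genes. The pairs share arrays, since each population enters 1 pair of each kind.

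The brightest probe and dimmer probes of a gene did not always move together. In 15 members several probes were above background on all 4 arrays. Within Lgr5+ the tuft marker difference was above 0 in 13 of 15 by the brightest probe and in 6 of 15 by the dimmest, with opposite signs in 9. Over all genes with several such probes signs were opposite in 45.8% of 4053. Gapdh shows it: of 6 probes, the 3 brighter gave 0.48, 0.58 and 0.72 and the 3 dimmer -0.44, -0.56 and -0.66, with all 6 below 0 within Lgr5-.

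Within Lgr5- the tuft marker difference was below 0 in 10 of 15 by the brightest and in 13 of 15 by the dimmest probe, with 3 opposite signs (29% of all genes). The Lgr5 difference was above 0 in 12 of 15 by either within tuft marker+, and below 0 in 12 and 13 of 15 within tuft marker-. Over all 57 member probes above background on every array, 39 were above 0 within Lgr5+ and 48 below 0 within Lgr5- for the tuft marker difference, 47 above 0 for the Lgr5 difference within tuft marker+ and 50 below 0 within tuft marker-. The part of a transcript that a probe reads was not stated in the sources used here, and the cause of the disagreement was not tested.

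**Figure D4:**
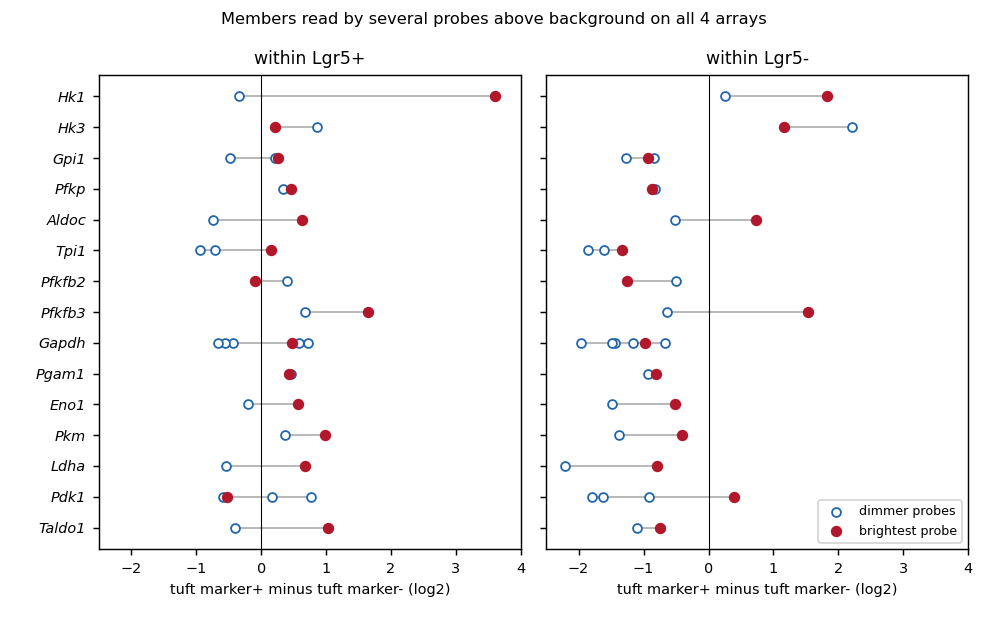
Tuft marker+ minus tuft marker- level on the log2 scale within Lgr5+ (left) and within Lgr5- (right) for 15 members with several probes above background on all 4 arrays, with the brightest probe filled, dimmer probes open and a line joining the probes of a gene. Within Lgr5+ several lines cross 0, such as those of Hk1, Gapdh and Ldha, while within Lgr5- most points lie below 0.

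Other epithelial gene groups were compared on the same arrays, as the plot of list medians shows. The summed level of 11 enterocyte markers was 7.44 in double-positive, 5.61 in Lgr5 single-positive, 6.81 in tuft single-positive and 6.95 in double-negative cells, with Lct not above background on any array. Their median tuft marker difference was 1.87 within Lgr5+ and 0.02 within Lgr5-, and their median Lgr5 difference 0.87 among tuft marker+ cells and -1.14 among tuft marker- cells. The 10 epithelial markers had summed levels of 8.09, 7.36, 7.77 and 7.72 in the same order. They had medians of 0.35, -0.73, 0.63 and -0.35 for the tuft marker within Lgr5+ and Lgr5- and for Lgr5 within tuft marker+ and tuft marker-, the same signs as the members' medians in all 4 pairs. Genes with a mean level over 2 had these signs as well, at 0.10, -0.13, 0.17 and -0.12. Of the pathway lists described below, so did gluconeogenesis, other glycolytic genes, pyruvate and lactate handling, and hypoxia and HIF targets. The part of the epithelial share in the members' order was not tested.

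**Figure D5:**
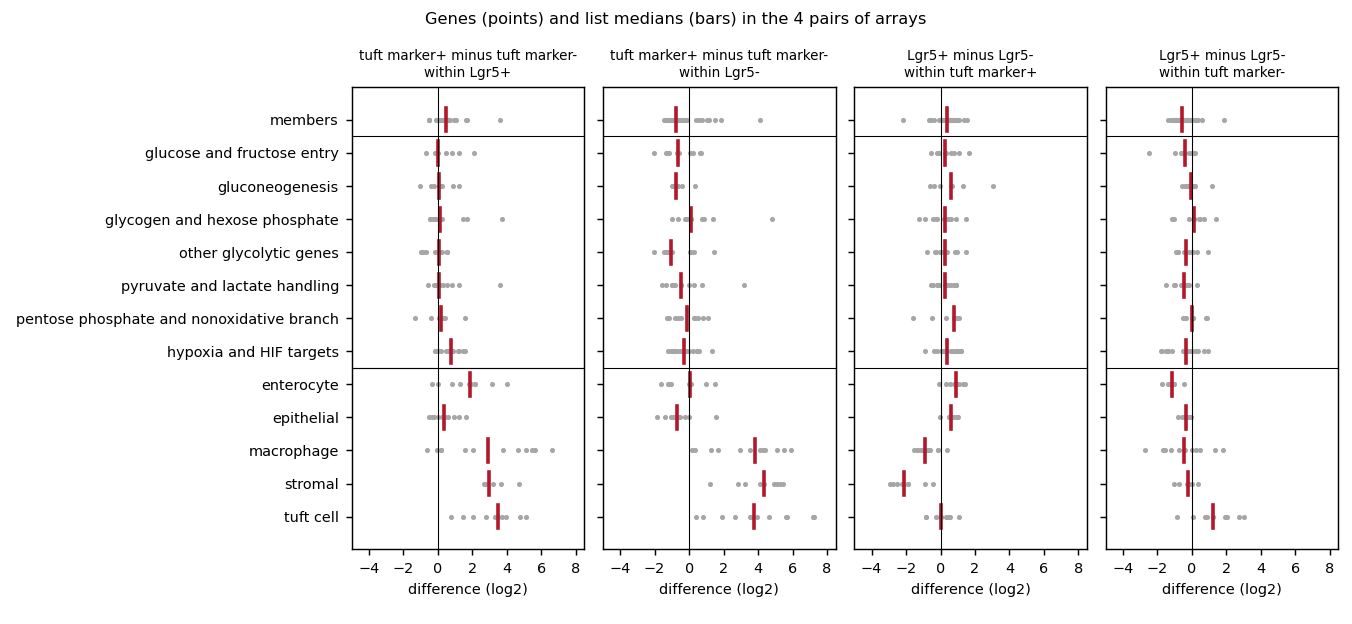
Differences on the log2 scale in the 4 pairs of arrays for the members (top), 7 pathway lists and 5 marker lists, with 1 grey point per gene and a red bar at the median of the list. The members' and the epithelial medians lie on the same side of 0 in every panel. The same holds for gluconeogenesis, other glycolytic genes, pyruvate and lactate handling, and hypoxia and HIF targets. Tuft cell, macrophage and stromal lists lie far right of 0 in both tuft marker panels.

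Tuft cell markers had median tuft marker differences of 3.47 within Lgr5+ and 3.76 within Lgr5-, with 10 of 11 and 10 of 12 at least 2-fold higher, and Il25 was not above background in either Lgr5+ population. Goblet and Paneth cell markers were lower with the tuft marker, at medians of -0.81 and -1.40, and higher with Lgr5, at 1.65 among tuft marker+ cells and 0.90 among tuft marker- cells. Crypt base stem cell markers had median Lgr5 differences of 1.42 among tuft marker+ cells and 0.45 among tuft marker- cells, with 2 of 6 tested below 0 in each. This list includes Lgr5 itself, on which the cells were sorted, so its differences are in part set by the sort. Mitosis genes had a median tuft marker difference of -0.18 within Lgr5+ and -1.13 within Lgr5-. In the second 6 of 10 were at least 2-fold lower and 1, Aurkb, was 3.18-fold higher. For the tuft marker the list of T and NK cells gave medians of -0.11 and 0.85, and that of B and plasma cells 0.41 and 1.33. Of 6 endothelial markers, Kdr, Tek and Emcn were not above background on any array, Cdh5 was in tuft single-positive cells only, and Pecam1 and Eng were on every array. Pecam1 was 3.90-fold higher with the tuft marker within Lgr5- and 1.32-fold lower within Lgr5+.

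Genes around the members were taken as lists from textbook pathways. Of 10 tested genes of glucose and fructose entry, 2 were at least 2-fold higher with the tuft marker within Lgr5+ (median 0.00) and 4 lower within Lgr5- (median -0.65). Slc2a5, the fructose transporter, had levels of 0.10 in double-positive, -2.0 in Lgr5 single-positive, -1.57 in tuft single-positive and 0.47 in double-negative cells, the order of most members with larger differences. It was 4.28-fold higher with the tuft marker within Lgr5+ and 4.12-fold lower within Lgr5-. It was also 3.19-fold higher with Lgr5 within tuft marker+ and 5.53-fold lower within tuft marker-. Slc2a3, a neuronal glucose transporter, was not above background on any array.

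Of 10 other glycolytic genes none was 2-fold apart with the tuft marker within Lgr5+ (median 0.08), while 5 were at least 2-fold lower and 1 higher within Lgr5- (median -1.04). Tigar, which lowers fructose 2,6-bisphosphate, had the largest difference there, at -2.05. Of 13 genes of pyruvate and lactate handling 2 were higher within Lgr5+ (median 0.07), and 1 was higher and 2 lower within Lgr5- (median -0.47). Emb, a partner protein of monocarboxylate transporters, was at least 12.3-fold higher with the tuft marker within Lgr5+ and 9.05-fold higher within Lgr5-. Bsg, the partner of MCT1 and MCT4, had levels of 2.09, 2.64, 2.24 and 3.21 in double-positive, Lgr5 single-positive, tuft single-positive and double-negative cells.

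Of 10 other pentose phosphate genes, 8 were tested within Lgr5+, where 1 was 2-fold higher and 1 lower with the tuft marker (median 0.17), and 10 within Lgr5-, where 1 was higher and 2 lower (median -0.12). Within tuft marker+ their median Lgr5 difference was 0.80, with 1 higher and 1 lower, next to 1.0 for the 4 member genes of the pathway. H6pd, the related dehydrogenase of the endoplasmic reticulum, was the largest within Lgr5+ at 1.58. Shpk, which phosphorylates sedoheptulose, ran against the members with tuft marker differences of -1.34 within Lgr5+ and 1.08 within Lgr5-.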

How the data were processed

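RNA of 4 sorted populations was read on 1 one-colour Agilent array each, after Cy3 labelling of 13 ng with a low-input amplification kit, per the labels' protocols. Per the file headers, Agilent Feature Extraction 12.0.3.1 made the deposited intensity of each spot, background-subtracted and detrended within the array, with an error and flags of 0 or 1. Version 11.5.1.1 is named in the submitters' processing notes. The authors deposited a second table of intensity values, which from the values is the scanner's intensity times 10.9, 7.82, 11.9 and 9.08 in double-positive, Lgr5 single-positive, tuft single-positive and double-negative cells, on a linear scale, not centred by gene, with column medians of 279, 286, 365 and 253. No label states the purpose of that scaling.

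Control and outlier spots were left out, log2 intensity was taken, and each array was set to 0 at its 75th percentile. Probes were named through transcript accessions and a RefSeq gene table of GRCm38.p6, 32994 of 56605 probes in all. A gene was given its brightest probe, entered a pair if above background on either array, and values below an array's floor (the lowest level of a probe well above background, -3.41, -3.86, -3.66 and -3.71 in the order above) were raised to it, so such differences are lower limits. All arrays lay on 1 slide read in 1 scan. With 1 array per population no test was made, the number of arrays limits the precision, and errors cover the spots only. The members and the gene lists were chosen with earlier results of these data known. All members may be named. Of each pathway list, genes 2-fold apart in the same direction in both pairs of an axis were named, otherwise the largest difference, and Bsg, Slc2a3, Ndrg1 and P4ha2 were added after their values were seen. Alternatives were other scalings, quantile normalization, normexp (offset 50), other probe and detection rules, and the authors' table. The calculation was tested on simulated data. Python 3.11.15, numpy 2.4.6, pandas 2.3.3, matplotlib 3.10.9, R 4.3.3 and limma 3.58.1 were used.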

Additional observations from a re-analysis of the deposited data

Results flagged for a closer look

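In 17 members the tuft marker difference was above 0 within Lgr5+ and below 0 within Lgr5-, and in 1 member it was the reverse, each beyond the spot error in both classes, where 14.4% and 13.4% of all genes had these orders. With 1 array per population the difference between the classes was not tested. The tuft marker difference within Lgr5+ minus that within Lgr5- was 0.74 for Hk2, 1.19 for Gpi1, 1.34 for Pfkp, 1.30 for Aldoa, 1.46 for Gapdh, 1.39 for Pgk1, 1.24 for Pgam1, 0.81 for Bpgm, 1.08 for Eno1, 1.39 for Pkm, 1.46 for Ldha, 1.69 for Slc16a3, 1.06 for Pdk3, 1.74 for Pdk4, 1.93 for Pgd, 1.34 for Tkt and 1.77 for Taldo1. For Pdk1, the member of the other order by its brightest probe only, it was -0.91. The medians over the members were 0.47 and -0.74, which are 1.21 apart.

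The Lgr5 difference within tuft marker+ minus that within tuft marker- is the same number for a gene, because both use the same 4 arrays. Opposite signs beyond the errors on this axis were found in 22 members above 0 within tuft marker+ (19% of all genes) and in 2 below it (16.9%), again with no test. Hk2, Gpi1, Pfkp, Aldoa, Gapdh, Pgk1, Pgam1, Bpgm, Pkm, Ldha, Slc16a3, Pdk1, Pdk3, Pdk4, Pgd, Tkt and Taldo1 were among them with the values above, Eno1 apart. The members added on this axis had 1.78 for Hk1, -0.96 for Hk3, 1.49 for Tpi1, 1.16 for Pfkfb2, 1.40 for Slc16a1, 0.76 for Pdha1 and 0.95 for G6pdx. The median of the members was 0.40 among tuft marker+ cells and -0.58 among tuft marker- cells, which are 0.97 apart.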

How the results depend on the processing

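No paired analysis was possible because each population had 1 array. Of 1260 values of single members under 9 alternatives, 1038 moved by less than their spot error, 217 moved by more, and 5 that had been at least 2-fold reversed their sign, all with the dimmest probe above background, an alternative chosen after seeing the data. These were Hk1 (-0.34) and Taldo1 (-0.40) for the tuft marker within Lgr5+, Pfkfb3 (-0.65) and Pfkfb2 (0.17) for it within Lgr5-, and Hk1 (0.058) for Lgr5 within tuft marker-. The cause was not tested.

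The members' median kept its sign in all 4 pairs under every alternative. For the tuft marker it was 0.25 within Lgr5+ with the dimmest probe, and within Lgr5- -0.97 scaled to the median and -0.45 in the authors' deposited table. For Lgr5 within tuft marker+ it was 0.62 scaled to the median. Scaling constants move all genes alike: the median of all genes for the tuft marker within Lgr5- was 0.08, against -0.15 scaled to the median, 0.19 with the percentile over detected probes and 0.37 in the authors' deposited table, so that 11.5%, 19.5% and 25% of all genes were 2-fold higher and 19.2%, 9.88% and 6.52% lower. For Lgr5 within tuft marker+ it was 0.18 scaled to the median, with 14.8% higher and 7.39% lower, and -0.21 in the authors' deposited table, with 6.09% and 15.6%. A scaling constant leaves the members' median minus that of all genes as it is, but other choices moved it: for the tuft marker within Lgr5+ from 0.46 to 0.20 after normexp, 0.27 with the dimmest probe and 0.31 with the mean of all probes, and for Lgr5 within tuft marker- from -0.58 to -0.39 after normexp.

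Counts of members moved more. Normexp shrank differences of all genes: those 2-fold higher and lower were 3.81% and 1.43% for the tuft marker within Lgr5+, 5.31% and 4.41% within Lgr5-, 2.17% and 2.21% for Lgr5 within tuft marker+, and 0.765% and 0.959% within tuft marker-. For the tuft marker within Lgr5+ the 4 higher were 2 with the dimmest probe, the mean of all probes or normexp. Of all genes 10.2% were higher there with the dimmest probe and 8.76% with the mean of all probes. The 0 lower were 1 with the positive-and-significant flag (13.3% of all genes) or without a filter (12.5%). Within Lgr5- the 5 higher were 3 with the dimmest probe, the mean of all probes, normexp or median scaling. The 8 lower were 15 with the dimmest probe, 16 with median scaling and 3 in the authors' deposited table. Of all genes 15.9% were higher and 13.9% lower there with the dimmest probe, and 14.7% were higher with the mean of all probes. For Lgr5 within tuft marker+ the 5 higher were 2 with the percentile over detected probes, normexp or the authors' deposited table. They were 3 after quantile normalization. Of all genes 7.98% were higher there with the percentile over detected probes and 11.1% after quantile normalization. The 1 lower was 0 with the mean of all probes (10% of all genes). Within tuft marker- the 1 higher was 0 and the 6 lower were 2 after normexp, and 11 were lower with median scaling, under which 7.17% of all genes were. Both single-positive populations were below the others in 17 members (dimmest probe) to 24 (median scaling), against 21. The files hold no mean spot signal, so normexp used the median spot signal, also chosen after seeing the data. Probes near background limit Ldhb.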

Other observations

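A list of HIF subunits, their regulators and hypoxia targets had 18 tested genes. With the tuft marker 4 were at least 2-fold higher within Lgr5+ (median 0.75), against 10.5% of all genes. Within Lgr5- 1 was higher and 2 were lower (median -0.31), against 16.6% and 12.3% of all genes. For Lgr5, 3 were higher within tuft marker+ (median 0.38) and 6 were lower within tuft marker- (median -0.33), against 8.97% and 5.31% of all genes. Egln3, a prolyl hydroxylase that marks HIF for destruction, had levels of -0.89 in double-positive, -1.64 in Lgr5 single-positive, -0.91 in tuft single-positive and 0.14 in double-negative cells, with a difference of -1.79 for Lgr5 within tuft marker-. Ankrd37, a HIF target, was the largest within Lgr5+ at 1.55. Ndrg1, a stress-induced gene, had tuft marker differences of 0.79 within Lgr5+ and 1.33 within Lgr5-. P4ha2 was not above background on any array.

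Among glycogen genes Pygl, the liver form of glycogen phosphorylase, had levels of 3.14 in double-positive, -0.60 in Lgr5 single-positive, 2.78 in tuft single-positive and -2.0 in double-negative cells. It was 13.3-fold higher with the tuft marker within Lgr5+ and 27.4-fold higher within Lgr5-, while the list's medians over 11 tested genes were 0.15 and 0.08. Pygb, the brain form, was lower with Lgr5, at least 2.36-fold within tuft marker+ and 2.03-fold within tuft marker-. Pck1, the rate-limiting enzyme of gluconeogenesis, was 8.11-fold higher with Lgr5 within tuft marker+ and 2.20-fold higher within tuft marker-. The gluconeogenesis list had medians of 0.58 and -0.05 there, and 0.09 and -0.77 for the tuft marker within Lgr5+ and Lgr5-.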
